A study of Homo sapiens with 27 samples.

Results

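The nuclear genes of the 5 complexes of the mitochondrial respiratory chain were described in drug-resistant colorectal cancer (CRC) cells. Members were taken by gene symbol, with NDUFA, NDUFB, NDUFC, NDUFS and NDUFV genes for complex I, SDHA to SDHD for complex II, UQCR genes for complex III, COX4 to COX8 genes whose number is followed by A, B or C for complex IV, and ATP5 genes for complex V. These symbols matched 91 of the 26255 gene rows, with 42 in complex I, 4 in complex II, 10 in complex III, 15 in complex IV and 20 in complex V. Of the 91 rows, 80 are subunit genes and 11 are other genes that carry such a symbol, namely antisense RNAs, readthrough transcripts, pseudogenes and retrocopies, ATP5S and ATP5SL. The RNA-seq data cover HCT116, SW480 and DLD-1, which are lines of human CRC cells, with 3 groups for each line, 3 libraries for each group and 27 libraries in all. The groups are untreated cells (WT), cells kept in 5 to 70 µM fluorouracil (5-FU res) and cells kept in 5 to 35 µM oxaliplatin (OX res) for about 6 months according to the labels. All groups grew in medium with fetal bovine serum. Each line and drug has 1 resistant derivative, and no source used here says if separate cultures gave the 3 libraries of a group, so that p-values reflect the variation among these libraries, and it may be technical.

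The respiratory chain sits in the inner mitochondrial membrane. Complex I takes electrons from NADH and complex II from succinate, complex III passes them to cytochrome c, and complex IV hands them to oxygen. Complexes I, III and IV pump protons as electrons pass, and complex V, the ATP synthase, lets the protons flow back to make ATP. Complex II is encoded in the nucleus alone, whereas the other complexes also hold subunits made from mitochondrial DNA. The nuclear subunits are built in the cytosol, imported and assembled with those made inside the organelle. The tables used here hold rows for 0 of the 13 protein-coding genes of mitochondrial DNA, so the values below concern the nuclear share of the chain only.

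Promoters of such genes are known to be bound by NRF1, by GABPA, by YY1 and by the estrogen-related receptor ESRRA. Promoter windows from 250 bases before to 50 bases after the start were taken from RefSeq on GRCh38.p14, where 70 of the 91 members matched, with 83 windows. One window per complex is printed 5′ to 3′ to show where short motifs lie, with every match in capitals. The letters searched on both strands were GCATGCGC for NRF1, CCGGAAG for GABPA, AAGATGGC for YY1 and AAGGTCA for ESRRA, and a match to such letters does not show binding.
NDUFB4, complex I, chr3:120596086-120596385, plus strand: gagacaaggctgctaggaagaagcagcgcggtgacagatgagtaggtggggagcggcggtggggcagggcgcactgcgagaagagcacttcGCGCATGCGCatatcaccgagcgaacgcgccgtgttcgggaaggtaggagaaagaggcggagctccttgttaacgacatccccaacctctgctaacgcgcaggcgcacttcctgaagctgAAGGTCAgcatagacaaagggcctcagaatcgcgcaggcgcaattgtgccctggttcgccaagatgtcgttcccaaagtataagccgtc
SDHB, complex II, chr1:17053983-17054282, minus strand: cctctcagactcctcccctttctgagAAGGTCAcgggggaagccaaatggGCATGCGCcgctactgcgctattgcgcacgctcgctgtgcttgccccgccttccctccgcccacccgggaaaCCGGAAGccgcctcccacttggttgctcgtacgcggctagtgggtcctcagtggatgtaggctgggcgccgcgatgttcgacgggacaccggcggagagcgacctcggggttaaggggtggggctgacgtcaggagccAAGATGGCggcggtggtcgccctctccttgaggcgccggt
UQCRH, complex III, chr1:46303448-46303747, plus strand: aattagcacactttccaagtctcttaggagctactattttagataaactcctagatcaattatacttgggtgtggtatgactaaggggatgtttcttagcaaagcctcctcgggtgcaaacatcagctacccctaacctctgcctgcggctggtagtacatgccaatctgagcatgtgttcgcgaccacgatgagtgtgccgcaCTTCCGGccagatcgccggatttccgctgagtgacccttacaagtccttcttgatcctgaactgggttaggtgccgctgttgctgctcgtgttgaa
COX5B, complex IV, chr2:97645812-97646111, plus strand: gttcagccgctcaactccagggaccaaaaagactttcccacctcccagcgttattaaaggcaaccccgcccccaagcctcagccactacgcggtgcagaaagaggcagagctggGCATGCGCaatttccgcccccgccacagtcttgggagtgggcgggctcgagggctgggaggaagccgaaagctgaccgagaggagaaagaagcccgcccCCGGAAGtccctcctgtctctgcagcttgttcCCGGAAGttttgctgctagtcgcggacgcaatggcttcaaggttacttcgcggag
ATP5I, complex V, chr4:674227-674526, minus strand: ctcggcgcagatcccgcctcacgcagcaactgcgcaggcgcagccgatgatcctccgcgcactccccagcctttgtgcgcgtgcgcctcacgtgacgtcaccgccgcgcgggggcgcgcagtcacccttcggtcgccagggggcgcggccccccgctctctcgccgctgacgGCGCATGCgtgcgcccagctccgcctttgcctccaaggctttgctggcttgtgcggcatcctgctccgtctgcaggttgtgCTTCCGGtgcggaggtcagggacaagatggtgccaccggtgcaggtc
The NDUFB4 window holds 2 overlapping NRF1 matches, 1 on each strand, and an ESRRA match. SDHB holds all 4 motifs, and its YY1 match covers an ATG after the start. Of the 83 member windows, 19.3% held the NRF1 letters, against 3.05% of all 35116 windows in the table. The shares were 24.1% against 10.3% for GABPA, 16.9% against 2.89% for YY1 and 13.3% against 3.92% for ESRRA. By complex, the NRF1 letters were in 7 of 42 windows of complex I, 2 of 3 of complex II, 0 of 7 of complex III, 2 of 15 of complex IV and 5 of 16 of complex V. Several members have more than 1 window, and the windows of NDUFA6 and of its divergent transcript NDUFA6-AS1 overlap on opposite strands, so windows are not independent.

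The deposited values are FPKM, which sum to 451767 to 804635 per library, and were divided by that sum to give TPM. No source used here gives the number of reads behind each library, and no counting interval can be stated. Before any further step, the median gene tested was higher in resistant than in WT cells on the log2(TPM + 1) scale, by 0.18 with 5-FU and 0.60 with OX in HCT116, by 0.44 and 0.36 in SW480 and by 0.13 with OX in DLD-1, and lower in DLD-1 with 5-FU (-0.03). Differences are therefore given after each library was centred on its median gene, and a difference below 0 means a loss relative to the median gene, which need not be a loss of TPM. A row named for the microRNA MIR6723 alone took 2.78% to 7.93% of the TPM of a library, and its part in these shifts was not tested. As a check of the cells, all 8 epithelial markers reached a TPM of 1, in at least 1 line, with summed levels of 5703 to 21037 TPM per library, while the 8 fibroblast, 8 leukocyte and 5 endothelial markers summed to at most 71.6, 71.1 and 2.09 TPM. The collagen COL1A1 reached 17.6 TPM, while COL1A2 and the leukocyte antigen PTPRC stayed at or below 0.151 and 0.116 TPM. Relative to the median gene, 6 of 6 epithelial markers tested were called lower with OX in HCT116, where 38.2% of all genes were. With 5-FU in SW480 it was 6 of 7, against 34.7%, whereas in DLD-1 OX res cells 4 of 7 were higher, against 24.2%. In mean TPM KRT19 (1194 to 1523) and CDX2 (15.1 to 17.3) rose with OX in HCT116, while EPCAM, KRT8, KRT18 and CDH1 fell. With 5-FU in SW480 KRT8 (4183 to 4632), KRT18 (3573 to 3716) and VIL1 (6.38 to 10.9) rose, while EPCAM, KRT19, CDH1 and CDX2 fell. Most markers of other cells that passed the filter were called higher in these HCT116 and SW480 cells, where 39.5% and 34.5% of all genes were. In HCT116 OX res cells 2 of 2 fibroblast markers rose (ACTA2 from 10.7 to 54.5 TPM on average). Of 2 leukocyte markers there, CD68 rose (from 15.4 to 61.5 TPM) and LYZ was called lower (-0.57 relative to the median gene). In SW480 5-FU res cells 3 of 3 fibroblast and 3 of 3 leukocyte markers rose. Their part in the members' values was not tested.

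Of the TPM of WT cells, the members together took 2.79% ± 0.0549 in HCT116, 2.73% ± 0.0734 in SW480 and 2.42% ± 0.0113 in DLD-1 (mean ± SD, n = 3 here and below). In resistant HCT116 cells the share was 1.73% ± 0.0516 with 5-FU and 2.15% ± 0.0702 with OX. For SW480 it was 2.44% ± 0.0108 and 2.43% ± 0.0381, and for DLD-1 2.33% ± 0.0838 and 2.35% ± 0.0546, in the same order. Complex I went from 0.915% ± 0.0143 in HCT116 WT cells to 0.568% ± 0.0231 with 5-FU and 0.749% ± 0.0129 with OX. Complex V went from 0.908% ± 0.0215 to 0.540% ± 0.0167 and 0.654% ± 0.0334, and complex IV from 0.711% ± 0.0163 to 0.460% ± 0.0139 and 0.564% ± 0.0210. In SW480 cells complex II had the largest relative loss of share with 5-FU, from 0.0574% ± 0.00329 to 0.0416% ± 0.00123, whereas complex IV went from 0.630% ± 0.0265 to 0.613% ± 0.00539, with overlapping libraries. All 3 HCT116 WT libraries lay above all 6 resistant libraries of that line for each complex. In DLD-1 cells both resistant groups lay below WT without overlap only for complex V, from 0.799% ± 0.00866 in WT to 0.745% ± 0.0258 with 5-FU and 0.764% ± 0.00431 with OX.

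**Figure D1:**
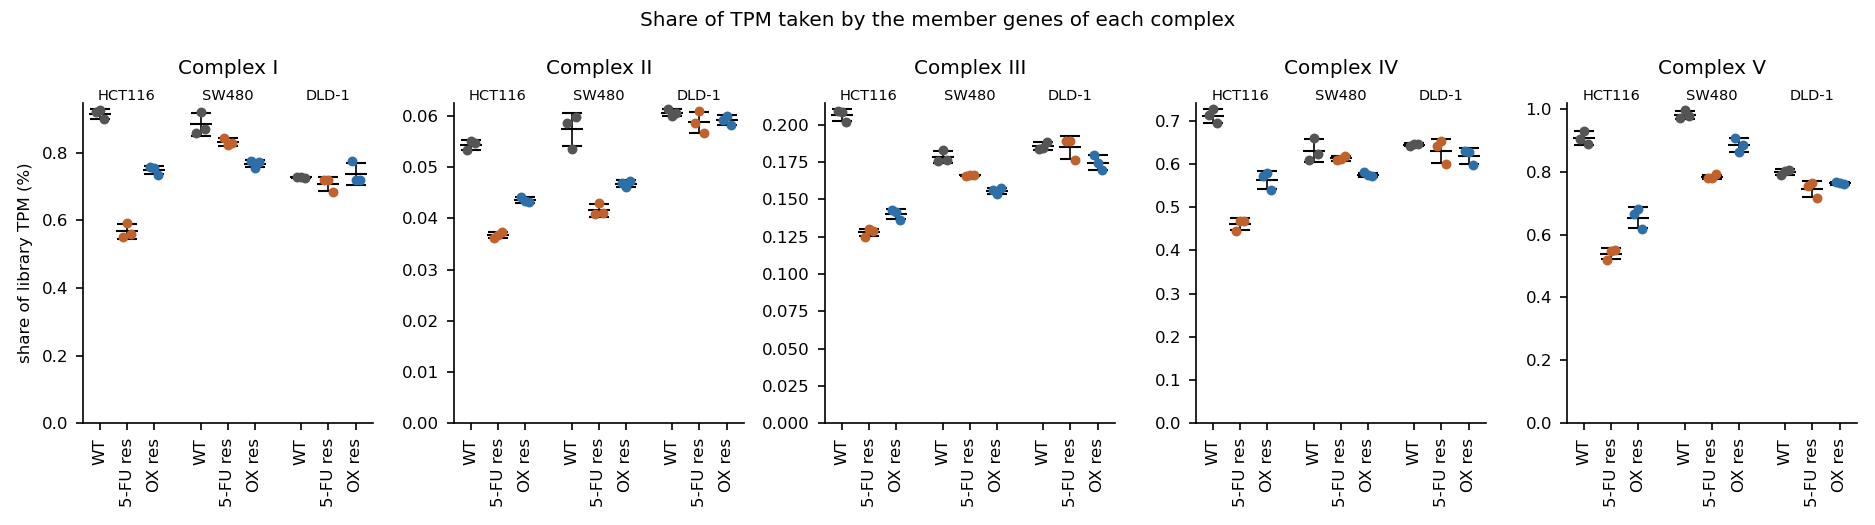
Share of library TPM, in percent, taken by the members of each complex, with 1 point per library, grouped by line and treatment, and bars for the mean and SD of 3 libraries. The resistant HCT116 groups lie below WT for every complex, most SW480 groups lie closer to their WT, and for DLD-1 complex I reads 0.728% ± 0.00126, 0.707% ± 0.0209 and 0.738% ± 0.0324 in WT, 5-FU res and OX res cells.

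In WT cells the levels of the subunit genes within a complex were unequal. In complex I of HCT116 WT cells they ran from 0.708 TPM for NDUFA4L2, known from hypoxia, and 14.01 TPM for NDUFA5, a subunit of the peripheral arm, to 771 TPM for NDUFB9, a subunit of the membrane arm. Complex III had its lowest subunit gene in UQCRB in all 3 lines (72.7, 31.8 and 25.4 TPM in HCT116, SW480 and DLD-1). Complex IV held the highest members of HCT116 and DLD-1, with 1379.6 and 1597 TPM for COX7C. In SW480 WT cells ATP5E, the gene of the epsilon subunit of the ATP synthase, was highest with 1956 TPM. Tissue forms of complex IV subunits were near 0. COX6A2, COX7A1, COX7B2 and COX8C, known from muscle or testis, did not reach a TPM of 1 in 3 libraries of any line and were left out of every test, as were the pseudogene UQCRBP1 and the retrocopy ATP5L2. Their common forms COX6A1, COX7A2, COX7B and COX8A had 983, 502, 601 and 1193 TPM in HCT116 WT cells. After the filter on low values 81 members were tested in HCT116, 84 in SW480 and 84 in DLD-1.

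Most members were lower in the resistant cells of HCT116 and SW480 relative to the median gene. In HCT116 5-FU res cells 74 of 81 tested members were lower and 2 higher, where 39.1% of all genes tested were called lower and 36.0% higher (limma, Benjamini-Hochberg adjusted p under 0.05, no threshold on the size). In HCT116 OX res cells the counts were again 74 and 2, against 38.2% and 39.5% of all genes. In SW480 5-FU res cells 69 of 84 were lower and 1 higher, against 34.7% and 34.5%. In SW480 OX res cells 75 were lower and 1 higher, against 34.2% and 33.0%. Without SW480 WT library 2, the count higher with 5-FU was 2. Without centring the counts lower and higher for SW480 were 41 and 18 with 5-FU and 44 and 7 with OX, and by quantile normalization 48 and 12 with 5-FU. Of all 14039 genes tested there, 2190 were lower and 8663 higher without centring with 5-FU, and 2032 and 8053 with OX. By quantile normalization 4696 and 4768 genes were lower and higher with 5-FU.

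Values for these 4 comparisons are listed below in 1 order, HCT116 with 5-FU, then with OX, SW480 with 5-FU, then with OX. The median of the members' differences, minus the median over all genes tested, was -0.82, -0.90, -0.57 and -0.55. The spread of such a median between libraries was 0.051, 0.073, 0.092 and 0.092 (pooled SD, n = 3 per group). These medians were smaller with other processing, at -0.39, -0.39, -0.26 and -0.21 by quantile normalization and at -0.51, -0.50, -0.43 and -0.23 with the trend on transcript length removed. In HCT116 5-FU res cells complex V had the lowest median (-1.0042, SD 0.044), followed by III (-0.93, SD 0.048), I (-0.80, SD 0.069), IV (-0.79, SD 0.058) and II (-0.64, SD 0.033). Complexes I and IV did not differ beyond that spread. In HCT116 OX res cells the order was III (-1.13, SD 0.076), V (-1.07, SD 0.10), IV (-0.92, SD 0.092), II (-0.77, SD 0.052) and I (-0.76, SD 0.081), where III and V, and II and I, lay within 1 SD of each other. In SW480 5-FU res cells complexes II and V were lowest (-0.89 and -0.84, SD 0.038 and 0.048), and III, I and IV followed with -0.55, -0.52 and -0.44 (SD 0.088, 0.098 and 0.094). In SW480 OX res cells complexes I, II, III and V lay between -0.63 and -0.53, and complex IV was the closest to the median gene (-0.34, SD 0.083). With the trend on transcript length removed, the complex IV median went to -0.02 there, and by quantile normalization it was 0.03 in SW480 5-FU res cells.

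**Figure D2:**
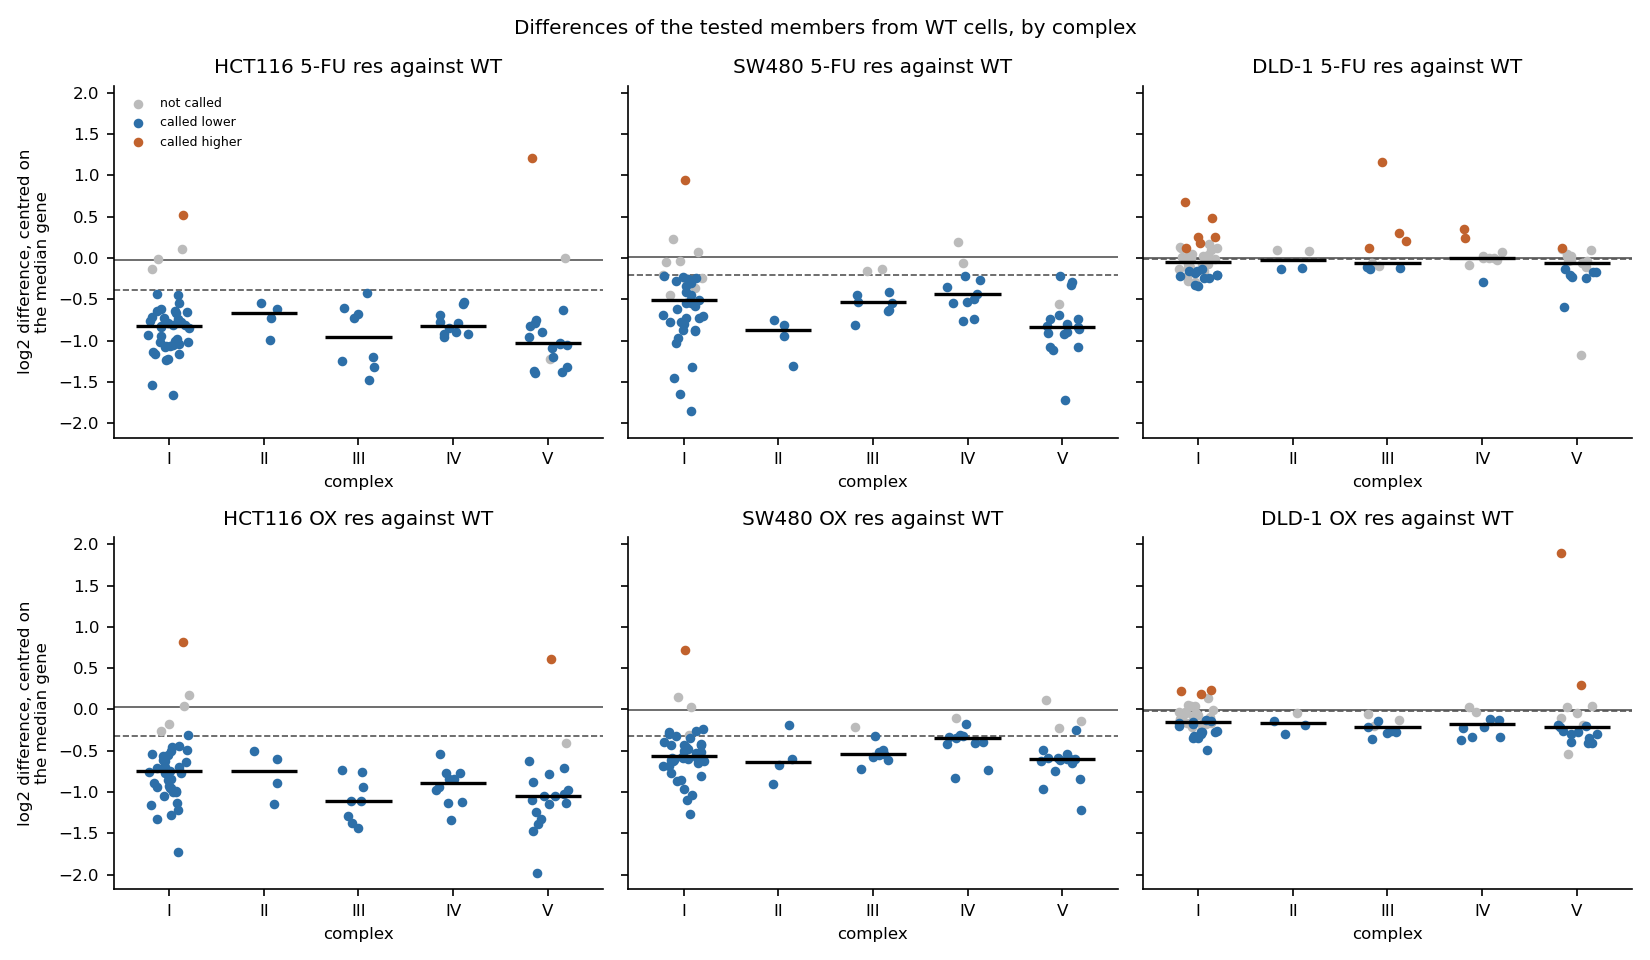
Log2 differences of the tested members between resistant and WT cells of 1 line, after centring each library on its median gene, by complex. Each point is a member coloured by its call, black bars are medians of a complex, the solid line is the median of all genes and the dashed line that of the length class with the shortest transcripts, and most points of HCT116 and SW480 lie below both lines.

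Groups were also compared on TPM without centring. Every resistant library lay below every WT library for 74 of 81 members in HCT116 5-FU res, where 28.8% of all genes did. With OX it was 56 of 81 in HCT116 (18.4%). In SW480 it was 45 of 84 with 5-FU (16.1%) and 43 of 84 with OX (15.2%), and in DLD-1 32 of 84 (31.3%) and 22 of 84 (13.9%). HCT116 and SW480 share no libraries, and 66 of 81 members tested in both were lower with 5-FU in both, that is 66 of the 74 called lower in HCT116 and of the 69 in SW480, where 21.6% of all genes tested in both were. With OX it was 73 of 81 members, of 74 and 75, and 22.8% of all genes.

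In DLD-1 cells the counts lay closer to those over all genes. In DLD-1 5-FU res cells 24 of 84 members were lower and 13 higher, where 25.4% and 24.9% of all genes were, and the complex medians minus that of all genes lay between -0.06 (complex V, SD 0.020) and 0.0060 (complex IV, SD 0.021). By quantile normalization 29 were lower and 9 higher, where 3438 and 3364 of all 13467 genes were. In DLD-1 OX res cells 42 were lower and 5 higher, against 22.2% and 24.2% of all genes, with a median of -0.17 (SD 0.039) and complex medians from -0.15 (I) to -0.21 (III), which lay within about 1 SD of each other (SD 0.061 and 0.058). Without centring 19 were lower and 12 higher, where 1504 and 5208 of all 13467 genes were. The largest loss of a subunit gene in DLD-1 5-FU res cells was that of ATP5G1, 1 of 3 genes for the same c subunit of the ATP synthase, with 364, 368 and 379 TPM in the WT and 251, 245 and 226 TPM in the 5-FU res libraries (log2 difference -0.60 with a standard error of 0.042, adjusted p = 1.1e-06 from limma). NDUFA8, an accessory subunit of complex I, rose from 183, 173 and 181 to 257, 248.9 and 233 TPM in the same cells (log2 difference 0.48 with a standard error of 0.044, adjusted p = 7.4e-06 from limma). In neither gene did the groups overlap.

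Genes of the catalytic core of complex I were called lower in HCT116 and SW480, for those described here with either drug apart from NDUFS1 with OX. NDUFS7, which holds the last iron-sulfur cluster before ubiquinone, had 139.8, 128 and 113 TPM in HCT116 WT, 50.9, 44.9 and 42.2 in 5-FU res and 91.3, 94.5 and 94.9 in OX res libraries. It had the lowest difference of complex I in HCT116 5-FU res cells (log2 difference -1.66 with a standard error of 0.088, adjusted p = 4.3e-08 from limma), and its groups did not overlap. NDUFV1, which binds NADH and FMN, had differences of -0.84, -1.21, -0.88 and -1.09 in the 4 HCT116 and SW480 comparisons. For its partner NDUFV2 they were -0.67, -1.0041, -0.73 and -0.58, and for NDUFS3 -0.74, -0.89, -0.78 and -0.96. NDUFS8 had -0.64, -0.49, -0.89 and -0.86, of which the second was above 0 without centring (0.09) and by quantile normalization (0.14). All of these passed the test. NDUFS1, the largest subunit, with several iron-sulfur clusters, did not follow them in OX res cells. It had 32.9, 36.0 and 36.5 TPM in HCT116 WT and 54.6, 53.3 and 54.5 in OX res libraries, a rise in TPM close to the shift of the median gene (difference 0.04, adjusted p = 0.55 from limma), and 0.02 in SW480 OX res cells (adjusted p = 0.78), but fell in HCT116 5-FU res cells (-0.85).

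NDUFB4, of the membrane arm, had the lowest difference of any member in SW480 5-FU res cells, with 318, 354 and 324 TPM in WT, 119, 124 and 126 in 5-FU res and 284, 266 and 288 in OX res libraries (log2 difference -1.86 with a standard error of 0.079, adjusted p = 1.3e-08 from limma, for 5-FU res). The 5-FU res libraries lay far below the other 6 of the line. In HCT116 OX res cells the lowest of complex I was NDUFB10, also of the membrane arm, with 482, 518 and 475 TPM in WT, 277, 289.8 and 275 in 5-FU res and 233, 208 and 222 in OX res libraries (log2 difference -1.72 with a standard error of 0.058, adjusted p = 5.2e-10 from limma, for OX res). In SW480 OX res cells it was the X-linked NDUFB11 (211, 257 and 226 TPM in WT and 121, 134 and 117 in OX res libraries, log2 difference -1.27 with a standard error of 0.11, adjusted p = 4.8e-06 from limma), while in SW480 5-FU res libraries NDUFB11 had 261, 248 and 283 TPM.

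At the other end, NDUFA3 had 0.23 with 5-FU in SW480 (adjusted p = 0.12 from limma), where its TPM went from 387 ± 59.3 to 610.4 ± 36.3 (SD, n = 3). NDUFA2 and NDUFA1 had -0.04 and -0.20 there (adjusted p = 0.63 and 0.051) but fell in HCT116 5-FU res cells (-1.02 and -1.16), and by quantile normalization they were higher in SW480 with 5-FU (0.34 and 0.28). In DLD-1 OX res cells NDUFB2, NDUFA2 and NDUFC2, all accessory subunits, were higher (0.19, 0.22 and 0.24), and the lowest subunit gene of complex I was NDUFS1 (-0.35). In DLD-1 5-FU res cells NDUFA6 was the lowest of complex I (-0.34), while NDUFA12, NDUFS7, NDUFB4 and NDUFA9 were higher (0.25, 0.26, 0.18 and 0.12). NDUFA4, once counted with complex I and now known as a subunit of complex IV, was lower than the median gene in the 4 HCT116 and SW480 comparisons (-0.44, -0.45, -0.70 and -0.57) and in DLD-1 5-FU res cells (-0.24), with 0.13 in HCT116 OX res cells without centring and 0.02 there by quantile normalization. Its relative NDUFA4L2 stayed at 0.708 to 1.93 TPM in WT cells and was called in neither SW480 nor DLD-1.

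Complex II was lower relative to the median gene in HCT116 and SW480, with 4 of 4 genes called lower in each of the 4 comparisons. Of all genes, 39.1%, 38.2%, 34.7% and 34.2% were. In mean TPM SDHC rose from 70.3 in HCT116 WT to 74.0 in OX res cells. SDHB, the iron-sulfur subunit, had 246, 258 and 239.8 TPM in HCT116 WT, 136, 148 and 147 in 5-FU res and 166, 172 and 162 in OX res libraries, with differences of -0.99 and -1.14 (standard error 0.066 for both). Its groups did not overlap. SDHA, the flavoprotein that oxidizes succinate, had -0.61, -0.60, -0.75 and -0.61 in the 4 HCT116 and SW480 comparisons. SDHD, a membrane anchor, had -0.55, -0.90, -0.94 and -0.90. SDHC, the other anchor, had 69.5, 63.7 and 68.8 TPM in SW480 WT, 33.8, 39.4 and 35.4 in 5-FU res and 76.0, 72.3 and 81.3 in OX res libraries. That gave the lowest value of the complex with 5-FU (log2 difference -1.31 with a standard error of 0.060, adjusted p = 2.2e-08 from limma) and the highest with OX (-0.19, adjusted p = 0.016). The OX value was 0.18 without centring and 0.17 with the length trend removed. The TPM of all 3 OX res libraries lay above those of WT, by less than the median gene rose. In DLD-1 cells SDHA, SDHC and SDHD were lower with OX (-0.14, -0.19 and -0.30) and SDHB was not called (-0.04, adjusted p = 0.49).

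In complex III all 8 tested members were called lower than the median gene in both HCT116 comparisons, where 39.1% and 38.2% of all genes were. UQCRQ had the lowest difference in HCT116 5-FU res cells, with 197, 197 and 182 TPM in WT, 72.7, 83.1 and 81.8 in 5-FU res and 118, 119 and 111 in OX res libraries (log2 difference -1.48 with a standard error of 0.077, adjusted p = 3.6e-08 from limma, for 5-FU res). UQCRC1, a core protein, had 285, 265 and 267 TPM in HCT116 WT, 132, 123 and 121 in 5-FU res and 189, 183 and 191 in OX res libraries, with -1.32 and -1.11. Its partner UQCRC2 changed least in HCT116 5-FU res cells (-0.42, and 0.01 by quantile normalization). UQCRFS1, the Rieske iron-sulfur protein, had -1.24, -1.11, -0.81 and -0.72 in the 4 HCT116 and SW480 comparisons and was the lowest of the complex in both SW480 comparisons. UQCRB, which lies near the ubiquinone site, was the lowest in HCT116 OX res cells (69.4, 78.2 and 70.6 TPM in WT and 39.7, 40.5 and 38.7 in OX res libraries, log2 difference -1.43 with a standard error of 0.069, adjusted p = 7.9e-09 from limma) and had -0.60 with 5-FU. UQCRH, the hinge protein, had -0.68 with 5-FU and -1.37 with OX. In DLD-1 5-FU res cells UQCRB, UQCRC1 and UQCRH were higher (0.30, 0.20 and 0.12), and in DLD-1 OX res cells UQCRC2 was the lowest (-0.36). UQCR11, a small subunit, fell in HCT116 (-0.72 and -0.94) and was not called in SW480 5-FU res cells (-0.16, adjusted p = 0.14).

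Complex IV members were lower than the median gene in HCT116 and, for most, in SW480. Of 10 tested in HCT116, 10 were called lower in both comparisons, where 39.1% and 38.2% of all genes were. They lay between -0.96 and -0.53 with 5-FU and between -1.34 and -0.54 with OX. In SW480, 9 of 11 were called lower with 5-FU and 10 of 11 with OX, against 34.7% and 34.2% of all genes. The SW480 medians of complex IV were -0.13 with 5-FU and -0.02 with OX once the length trend was removed. They were 0.03 and -0.0087 by quantile normalization. COX6C had 340.4, 372 and 338 TPM in HCT116 WT, 209, 282 and 267 in 5-FU res and 204, 215 and 196 in OX res libraries, and had the lowest value with OX (log2 difference -1.34 with a standard error of 0.11, adjusted p = 6.9e-07 from limma). In DLD-1 5-FU res cells COX6C rose (0.35), and in DLD-1 OX res cells it fell (-0.34). COX5A, which surrounds the core with COX5B, had -0.53, -1.13, -0.54 and -0.18 in the 4 comparisons and COX5B -0.77, -0.84, -0.06 and -0.30, of which the last were 0.20 and 0.07 without centring. COX5B did not pass in SW480 5-FU res cells (adjusted p = 0.58, and 0.37 without centring), where it went from 517, 613 and 549.9 to 733, 703 and 730.3 TPM. COX8A was the lowest of the complex in both SW480 comparisons (-0.76 and -0.82), with 1296, 1505 and 1337 TPM in WT and 993, 1033 and 993 in OX res libraries. COX7B was the lowest in HCT116 5-FU res cells (-0.96). COX7A2L, which takes part in joining complexes III and IV, had -0.56, -0.54, -0.54 and -0.33 and rose in DLD-1 5-FU res cells (0.24), while COX7A2 had -0.85, -0.85, -0.35 and -0.39. Without centring COX7A2L was 0.03 and 0.05 in HCT116 OX res and SW480 OX res cells and COX7A2 0.08 in SW480 5-FU res cells. COX6B1, which bridges the dimer, had -0.79, -0.94, -0.43 and -0.74, and COX6A1 had -0.89, -0.77, -0.26 and -0.34, the last 2 being 0.17 and 0.03 without centring. By quantile normalization several of these changed sign, in SW480 with 5-FU to 0.41 for COX5B, 0.38 for COX6A1, 0.27 for COX6B1, 0.09 for COX7A2 and 0.0067 for COX8A, in SW480 with OX to 0.23 for COX5A, 0.08 for COX5B and 0.08 for COX6A1, and in HCT116 with 5-FU to 0.02 for COX5A. COX6B2, the testis form, was at 0.950, 1.81 and 0.637 TPM in SW480 WT and 2.50, 1.53 and 2.79 TPM in 5-FU res libraries and was not called (0.20, adjusted p = 0.47).

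In complex V the catalytic head was lower in HCT116 and SW480. ATP5B, the beta subunit with the catalytic sites, had 1032, 1081 and 1059.8 TPM in HCT116 WT, 718, 718 and 738 in 5-FU res and 739, 739 and 723 in OX res libraries, with -0.75 and -1.10. In SW480 cells it had -0.92 and -0.62. ATP5A1, the alpha subunit, had -0.82, -1.13, -0.86 and -0.58 in the 4 comparisons, and ATP5C1, the gamma subunit of the rotor, -0.96, -0.98, -0.69 and -0.60. ATP5D, the delta subunit of the rotor, had the lowest difference of any member in HCT116 OX res cells, with 398, 333 and 311 TPM in WT, 158, 153 and 142 in 5-FU res and 137, 121 and 131 in OX res libraries (log2 difference -1.98 with a standard error of 0.089, adjusted p = 4.6e-09 from limma, for OX res). ATP5E, which sits beside ATP5D in the rotor, had -1.31 and -0.62 in HCT116 5-FU res and OX res cells, the second being 0.24 by quantile normalization (adjusted p = 0.024 from limma), with mean levels of 1219.7 TPM in WT and 1183 TPM in OX res cells. In SW480 OX res cells ATP5E did not pass (-0.14, adjusted p = 0.083) and was higher without centring (0.23) and by quantile normalization (0.51), with 1969.7, 2009 and 1888 TPM in WT and 2384, 2155 and 2345 in OX res libraries. ATP5I, of the membrane part, was the lowest of the complex in SW480 5-FU res cells, with 713, 778 and 783 TPM in WT and 335, 295 and 302 in 5-FU res libraries (log2 difference -1.72 with a standard error of 0.082, adjusted p = 2.7e-08 from limma). ATP5J2, also of the membrane part, fell in HCT116 (-1.37 and -1.38) and rose in DLD-1 OX res cells (0.29), from 725, 746 and 747 to 944, 1060.0 and 977 TPM.

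The c subunit, which forms the rotating ring of the ATP synthase, is made from ATP5G1, ATP5G2 and ATP5G3, whose mature proteins are the same. These genes did not change together. In HCT116 5-FU res cells ATP5G1 went from 819, 787 and 765 to 425, 439.7 and 456 TPM (log2 difference -1.05 with a standard error of 0.072, adjusted p = 2.3e-07 from limma) and ATP5G3 from 202, 192 and 194 to 86.0, 85.7 and 90.1 TPM (log2 difference -1.37 with a standard error of 0.066, adjusted p = 2.3e-08 from limma). ATP5G2 went from 437, 418 and 408 to 473, 484 and 505 TPM and was not called (log2 difference 0.00090 with a standard error of 0.066, adjusted p = 0.99 from limma). The groups did not overlap in TPM for any of the 3 genes, with ATP5G2 higher and the others lower. The ratio of ATP5G1 to ATP5G2 was 1.88 ± 0.00528 (SD, n = 3) in HCT116 WT cells, 0.902 ± 0.00591 with 5-FU and 1.11 ± 0.0494 with OX, a quantity that needs no scaling between libraries. In SW480 cells it was 1.09 ± 0.0165, 0.676 ± 0.04996 and 0.562 ± 0.0318. In DLD-1 cells it was 0.805 ± 0.0221 in WT, 0.628 ± 0.0235 with 5-FU and 1.09 ± 0.0406 with OX, so that 5-FU res and OX res cells lay on either side of WT. In HCT116 with OX, ATP5G2 had -0.71 and ATP5G1 -1.47. In SW480, ATP5G2 had -0.22 with 5-FU and -0.25 with OX, and ATP5G1 -0.91 and -1.22. In DLD-1, ATP5G2 had -0.24 and -0.41, and ATP5G1 -0.60 and 0.03, of which the last did not pass (adjusted p = 0.60 from limma), and ATP5G2 in SW480 was 0.22 with 5-FU and 0.12 with OX without centring, and 0.31 and 0.15 by quantile normalization. Of the promoter windows of ATP5G1 and ATP5G2, the NRF1 letters were in 2 of the 3 windows of ATP5G2 and not in the window of ATP5G1. The part of these letters in the levels of the genes was not tested.

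**Figure D3:**
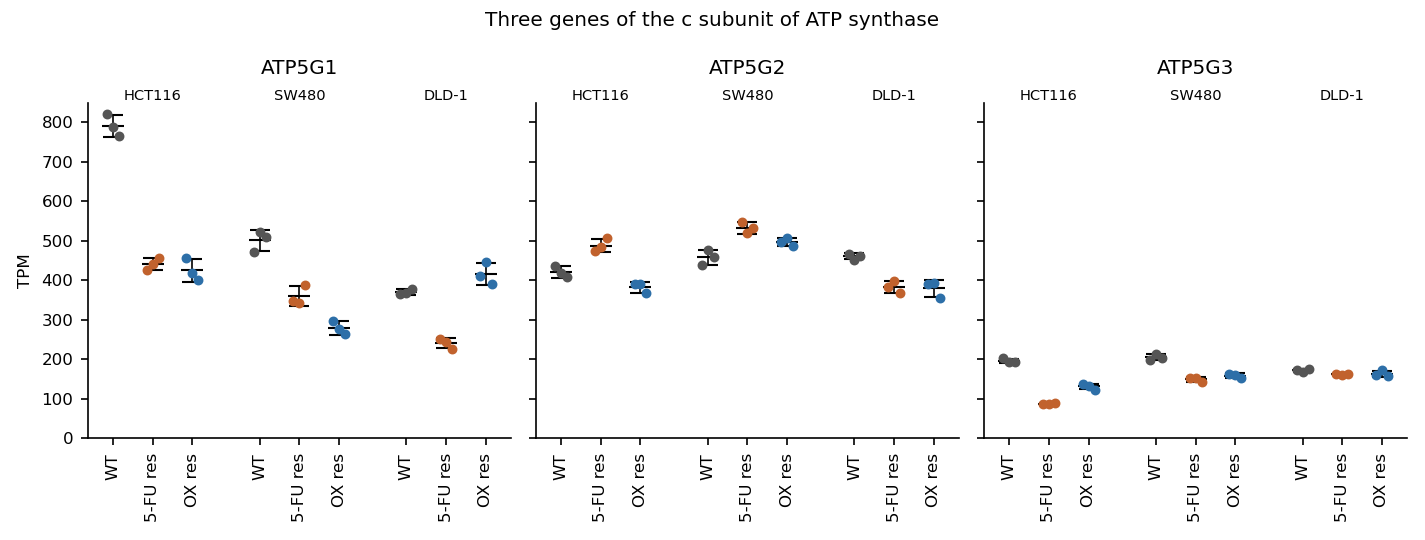
TPM of ATP5G1, ATP5G2 and ATP5G3 in every library, grouped by line and treatment, with bars for the mean and SD of 3 libraries. In HCT116 5-FU res cells ATP5G1 and ATP5G3 lie at 440.0 and 87.3 TPM, below WT, and ATP5G2 at 488 TPM, above WT.

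The members called against the majority in HCT116 and SW480 were 2 matches that are no subunit gene. NDUFA6-AS1, a transcript that runs away from the NDUFA6 promoter on the other strand, had 2.94, 2.89 and 3.28 TPM in HCT116 WT, 6.42, 4.74 and 6.05 in 5-FU res and 9.69, 8.32 and 10.8 in OX res libraries. It was higher in all 4 comparisons (0.52, 0.82, 0.94 and 0.72), while NDUFA6 was lower than the median gene (-0.9999, -0.76, -0.26 and -0.76), the third being 0.18 without centring and 0.04 by quantile normalization. ATP5S, a gene named for a coupling factor of the ATP synthase, had 3.34, 3.21 and 4.06 TPM in HCT116 WT, 10.4, 11.7 and 11.4 in 5-FU res and 8.75, 9.70 and 9.23 in OX res libraries (1.21 and 0.61). Of the subunit genes alone, 72 of 74, 72 of 74, 67 of 76 and 72 of 76 were lower in the 4 comparisons, and the others were not called. The shares of all genes called lower were 39.1%, 38.2%, 34.7% and 34.2%. In DLD-1 cells 2 low copies of subunit genes rose, with UQCRHL at 1.15, 0.457 and 0 TPM in WT and 3.24, 1.79 and 1.78 TPM in 5-FU res libraries (1.16) and ATP5EP2 listed at 0 in all 3 WT libraries and at 4.97, 1.24 and 4.02 TPM in OX res libraries. Both share sequence with their parent genes UQCRH and ATP5E, so that reads can be split between copies and these values are uncertain. The readthrough NDUFC2-KCTD14 shares its reads with NDUFC2 in the same way (0.68 and -0.14 in DLD-1 5-FU res cells).

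Several of the members that stood apart lay among genes that differed in the same direction. For each member the other tested genes that start within 3 Mb of it were taken, with positions from GENCODE on GRCh37. Around NDUFB4 (chr3:120315175-120321354), 31 of 32 such genes were below 0 in SW480 5-FU res cells, with a median of -1.26. Around SDHC (chr1:161284171-161332996) it was 38 of 39 with a median of -0.81. Around NDUFB5 (chr3:179322478-179345435, difference -1.45) the median was -0.89 over 15 genes, around ATP5I (chr4:666225-668119) -0.79 over 47 and around NDUFV3 (chr21:44299754-44333414, difference -1.32) -0.52 over 49. In SW480 OX res cells the genes around NDUFB11 (chrX:47001470-47004865) had a median of -0.74. In HCT116 OX res cells UQCRB, COX6C and NDUFB9, all on chromosome 8, had neighbours with medians of -0.53, -0.48 and -0.52, against own differences of -1.43, -1.34 and -1.16. DNA copy number was not measured here, and its part in these values was not tested.

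NDUFB10 (chr16:2009539-2011976) and ATP5D (chr19:1241745-1244824) in HCT116 OX res cells lay among genes closer to 0, with neighbour medians of -0.23 and -0.25. Over the members with at least 10 such neighbours, 74 of 77, 74 of 77, 75 of 79 and 76 of 79 lay below their neighbours in the 4 HCT116 and SW480 comparisons, by medians of -0.77, -0.79, -0.60 and -0.50. In DLD-1 it was 42 and 68 of 78, by -0.05 and -0.17. Across members, the Pearson correlation of their own difference with that of their neighbours was 0.24 with 5-FU and 0.13 with OX in HCT116 (n = 77), 0.61 and 0.42 in SW480 (n = 79) and -0.0040 and 0.04 in DLD-1 (n = 78). Members close together share neighbours, so these points are not independent.

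**Figure D4:**
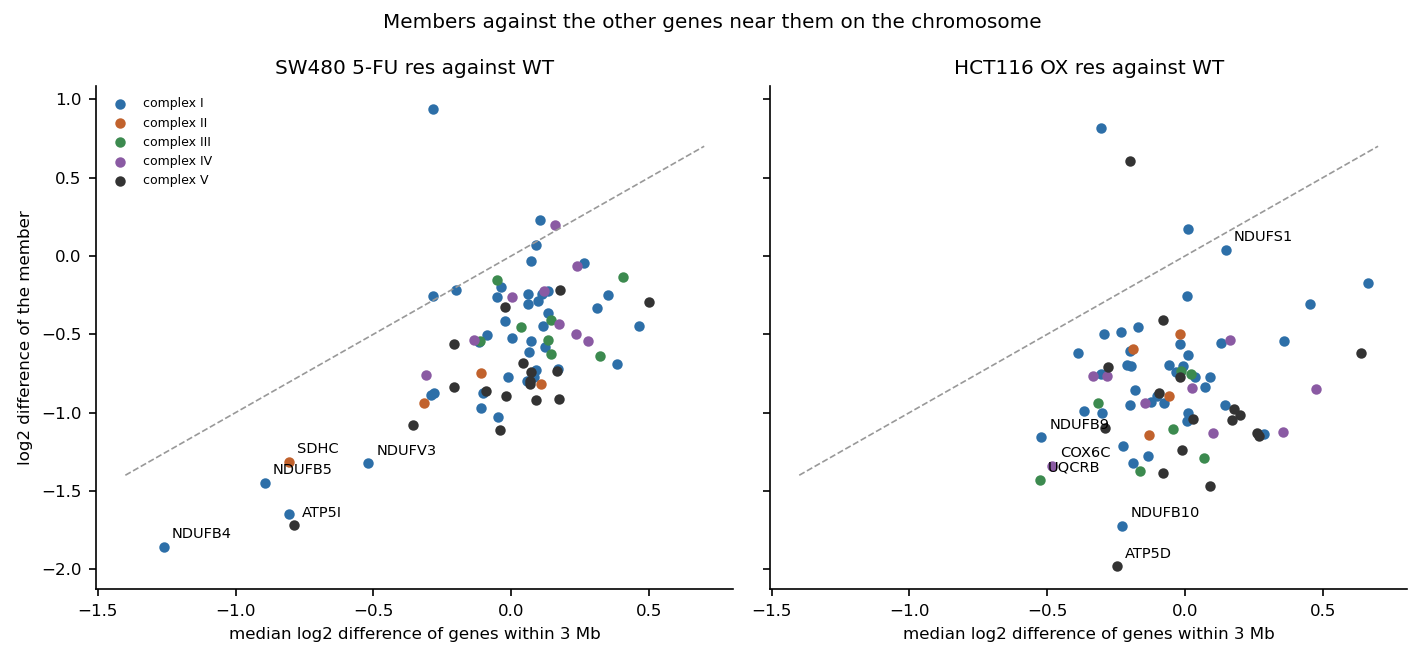
Log2 difference of each member against the median log2 difference of the other tested genes within 3 Mb, for SW480 5-FU res and HCT116 OX res cells against WT, with the dashed line marking equal values. Most members lie below the line, and NDUFB4, NDUFB5, SDHC and ATP5I lie far to the left in SW480 5-FU res cells.

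Differences also ran with transcript length in HCT116 and SW480, and the members are short. The genes tested that had a matched transcript length, 13562 of 14010 in HCT116, 13598 of 14039 in SW480 and 13047 of 13467 in DLD-1, were split into 4 length classes of about equal size, from class 1 with the shortest to class 4 with the longest transcripts. The median transcript of the members has 690.0 bases, and 62 of the 81 tested in HCT116 lie in class 1, under 1601 bases. Class 1 had medians of -0.38, -0.32, -0.21 and -0.32 in the 4 HCT116 and SW480 comparisons, and class 4 0.37, 0.27, 0.19 and 0.34. The members in class 1 had -0.93, -0.94, -0.54 and -0.54, and those in class 2 -0.75, -0.56, -0.60 and -0.57, where all genes of class 2 had -0.21, -0.05, -0.07 and -0.14. In DLD-1 cells class 1 had -0.01 with 5-FU and -0.02 with OX, and its members -0.0088 and -0.16. With the length trend removed in each library, the counts lower and higher were 74 and 4, 67 and 4, 57 and 5 and 52 and 3 in the 4 HCT116 and SW480 comparisons. Over all genes these counts were 5211 and 4793, and 5233 and 5444, of 13562 in HCT116. In SW480 they were 4771 and 4749, and 4506 and 4239, of 13598. The part of RNA quality in the length trend was not tested.

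**Figure D5:**
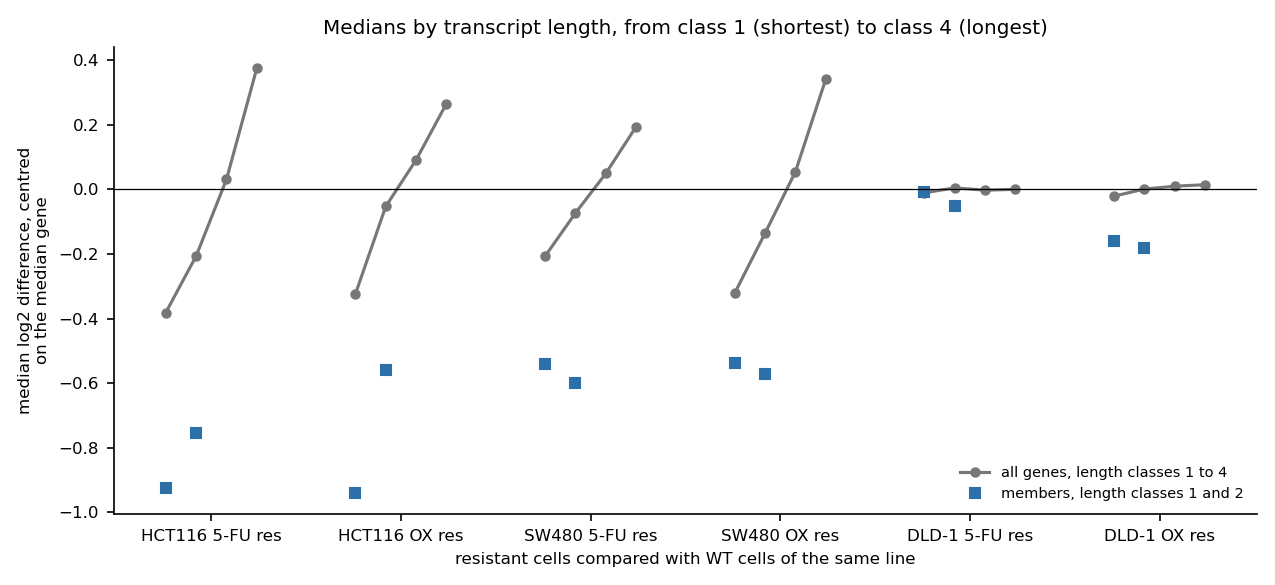
Median log2 difference against WT by length class, from class 1 with the shortest transcripts on the left to class 4 on the right, for all genes tested (circles) and for members in classes 1 and 2 (squares). In HCT116 and SW480 the members lie below the genes of their own class, and in DLD-1 5-FU res cells they lie close to them.

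Other housekeeping families also lay below the median gene. In the 4 HCT116 and SW480 comparisons the mitochondrial ribosomal protein genes had medians of -0.93, -0.86, -0.79 and -0.66, and the proteasome subunits -0.93, -0.82, -0.74 and -0.58. Cytosolic ribosomal protein genes, pseudogenes with such symbols included, had -0.11, -1.32, -1.02 and -0.73. In DLD-1 OX res cells the cytosolic list had -0.51, the mitochondrial list -0.07 and the proteasome 0.09, beside -0.17 for the members.

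Further genes of the pathway were counted by lists, to be read against the share of all genes called, which was 39.1%, 38.2%, 34.7% and 34.2% lower and 36.0%, 39.5%, 34.5% and 33.0% higher in the 4 HCT116 and SW480 comparisons, and in DLD-1 25.4% lower and 24.9% higher with 5-FU and 22.2% and 24.2% with OX. Of 7 tested respiratory genes that the symbols miss, among them CYC1 (cytochrome c1 of complex III), COX4I1 (the largest nuclear subunit of complex IV), CYCS (cytochrome c) and NDUFAB1, 7 were lower in each HCT116 and SW480 comparison, with NDUFAB1 the lowest in HCT116 with 5-FU (-1.31) and CYC1 in the others (-1.84, -1.21 and -1.08), and with CYCS (-0.54) and then ATPIF1, an inhibitor of the ATP synthase, closest to 0 (-0.25, -0.26 and -0.28). Complex I assembly factors, which help build the complex and do not stay in it, were lower for 10, 12, 13 and 12 of 14 genes in the 4 HCT116 and SW480 comparisons, and for 1 and 3 in DLD-1, where 2 and 2 were higher. The lowest in the 4 comparisons were FOXRED1 (-1.35), ECSIT (-1.15), ACAD9 (-1.83) and ECSIT (-1.50). The highest were NUBPL (0.10, adjusted p = 0.33 from limma), NDUFAF7 (0.28), NDUFAF1 (0.33) and NUBPL (-0.01, adjusted p = 0.91). Assembly factors of complexes II to V were lower for 27, 26, 23 and 24 of 33 in the same order, and higher for 3, 3, 1 and 1. UQCC3 was the lowest in HCT116 with either drug (-1.08 and -1.48) and in SW480 with OX (-1.12), and COX17, a copper chaperone of complex IV, in SW480 with 5-FU (-1.88). The highest in the 4 comparisons were COX19 (0.47), UQCC1 (0.52), COA5 (0.38) and COA7 (0.27).

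The regulators of mitochondrial biogenesis and of mitochondrial DNA expression were called in both directions in 3 of these comparisons. Of 18 tested, 9, 17, 10 and 8 were lower and 4, 0, 2 and 5 higher in the same 4 comparisons. The counts lower with 5-FU in HCT116 and with OX in SW480 lay closest to the share of all genes. GABPA, the DNA-binding chain of a factor whose letters are shown above, was called in both directions. It was higher with 5-FU in HCT116 (0.79) and with OX in SW480 (0.77). With OX in HCT116, GABPA was among the 17 regulators called lower, where only GABPB1 was not called. The GABPA value with 5-FU in SW480 is not reported here. NRF1 had -0.16, -0.47, 0.15 and -0.08, with adjusted p = 0.089, 0.00022, 0.17 and 0.49 from limma, and YY1 had 0.08, -0.36, 0.15 and 0.18 (adjusted p = 0.19, 5.1e-05, 0.073 and 0.035). ESRRA had -0.15, -0.70, -0.43 and -0.72 (adjusted p = 0.019, 1.6e-07, 0.0049 and 0.00020). POLG, the polymerase of mitochondrial DNA, rose in SW480 with 5-FU (0.94). The highest in HCT116 with OX was GABPB1 (-0.05, adjusted p = 0.62 from limma). TWNK, listed as C10orf2, the helicase of mitochondrial DNA, fell in HCT116 OX res cells (-1.46), and SSBP1, which binds single-stranded mitochondrial DNA, with 5-FU in HCT116 (-0.82) and with either drug in SW480 (-1.33 and -0.98).

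Of 13 genes of the tricarboxylic acid cycle, which feeds the chain, 10, 11, 11 and 12 were lower in the 4 HCT116 and SW480 comparisons, with medians of -0.44, -0.63, -0.84 and -0.51. The lowest were FH, the fumarase, in HCT116 with 5-FU (-1.57), MDH2, a malate dehydrogenase, with OX (-1.37) and SUCLG1, of succinyl-CoA ligase, in SW480 with either drug (-1.70 and -0.81). The highest were SUCLA2 in HCT116 with OX (0.06, adjusted p = 0.49 from limma) and DLST in SW480 with 5-FU (0.26) and with OX (-0.05, adjusted p = 0.42), and 2 genes were called higher, both in SW480 with 5-FU. Of 18 genes of glycolysis and lactate, 16, 12, 15 and 11 were lower and 2, 4, 2 and 3 higher. The lowest were TPI1 in HCT116 with 5-FU (-1.44), LDHB, a lactate dehydrogenase chain, in HCT116 with OX (-1.47) and in SW480 with 5-FU (-1.44), and ENO1 in SW480 with OX (-1.45). The highest were PDK1 (0.26), ALDOC (0.90 and 0.85) and PKM, the pyruvate kinase of most tissues (0.82). In DLD-1 OX res cells 13 of 18 were lower, with HK2 at -0.66, and 3 higher, with PKM at 0.59. Of the 13 cycle genes 5 were lower and 4 higher there, from -0.54 for SUCLG2 to 0.59 for IDH3A, with a median of -0.03.

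The resistant derivatives of a line were compared with each other. In HCT116, 23 members were lower and 21 higher in OX res than in 5-FU res cells, where 38.7% and 36.4% of all genes were. Complex V, with 20 of the 91 matched members, held 8 of the lower ones. Complex I, with 42, held 15 of the higher ones. Both counts lay near the shares of all genes. NDUFS1 and NDUFA9 had 0.88 and 0.77, and UQCRB and NDUFB10 -0.83 and -0.70. Without centring 8 were lower and 58 higher, where 2857 and 7941 of all 14010 genes were. In SW480, 18 were lower and 29 higher, against 31.6% and 33.6% of all genes, with NDUFB4 and SDHC at 1.23 and 1.12 and NDUFB11 at -1.02. With 1 library left out the count lower was 11 to 15, lowest without SW480 OX res library 3. Without centring 24 were lower and 23 higher, and by quantile normalization 26 and 25. Of all 14039 genes, 4821 and 3830 were lower and higher without centring, and 4611 and 4745 by quantile normalization. In DLD-1, 43 were lower and 14 higher, against 31.2% and 31.7%. Without centring it was 18 and 19, against 2469 and 6008 of all 13467 genes. NDUFA8 had -0.78 and COX6C -0.68, while ATP5G1 had 0.63.

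Whether a member responded differently between lines was tested as an interaction over all 27 libraries, where 85 members were tested. With 5-FU, 53 members differed between HCT116 and SW480, where 64.5% of all genes did, 76 between HCT116 and DLD-1 (64.1%) and 66 between SW480 and DLD-1 (63.5%). With OX, 46 differed between HCT116 and SW480 (63.5%), 72 between HCT116 and DLD-1 (69.2%) and 57 between SW480 and DLD-1 (60.1%). The shares of members were 62.4%, 89.4% and 77.6% with 5-FU and 54.1%, 84.7% and 67.1% with OX. Of the 76 members that differed with 5-FU between HCT116 and DLD-1, 73 had the lower difference from WT in HCT116, and of the 72 with OX 69 had. Over all genes that differed, 5122 of 10128 with 5-FU and 5235 of 10930 with OX had the lower difference from WT in HCT116. The DLD-1 libraries carry names from another number run than those of HCT116 and SW480, so that line and run of libraries cannot be told apart. UQCRC1 with 5-FU differed most clearly between HCT116 and DLD-1 (-1.32 and 0.20 in each line, interaction -1.49, standard error 0.068, adjusted p = 3.1e-14 from limma). The difference of NDUFB10 from WT with OX was lower in HCT116 than in SW480 (interaction -1.07, adjusted p = 2.4e-09) and DLD-1 (interaction -1.54, adjusted p = 3.4e-12). That of ATP5G1 with OX was lower in SW480 than in DLD-1 (interaction -1.22, adjusted p = 1.6e-09).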

How the data were processed

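The deposited tables hold FPKM per gene from poly(A) RNA of 27 libraries. Per the labels and the processing notes of the submitters, the authors aligned single reads to hg19 with TopHat2 2.1.1 and Bowtie2 2.2.8, used SAMtools 0.1.18 and computed FPKM with Cuffdiff 2.2.1, for which the methods name Cufflinks. FPKM already divides by length and depth, so a count model was not used and reads per library are not known. FPKM were divided by their sum per library to give TPM, log2(TPM + 1) was taken, genes with a TPM of at least 1 in 3 libraries of a line were kept, and each library was centred on its median gene. A difference on this scale understates the change of low genes. Differences were tested with limma 3.58.1 in R 4.3.3 (lmFit, eBayes with trend) on the 9 libraries of a line, and interactions on all 27, with Benjamini-Hochberg adjustment over all genes tested and a threshold of 0.05. The test was run on simulated data first. Positions and transcript lengths came from GENCODE on GRCh37 and promoters from RefSeq on GRCh38.p14, with no coordinates moved between builds. The members and lists were chosen with earlier results of these data known. Named were the lowest and highest member of each complex and comparison, core and catalytic subunits, paralogue sets, members called against the majority, the 5 members with the smallest p per interaction, and the lowest and highest gene of each pathway list in HCT116 and SW480, while comparison families were given as medians, with neighbours of genes that stood apart chosen after their values were seen. The values of some genes that these rules name are not reported here. Alternatives were another pseudocount, filter, scaling, centring, length and GC trends, a replicate block, subunit genes only and each library left out in turn. Figures were drawn with matplotlib 3.10.9.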

Additional observations from a re-analysis of the deposited data

Results flagged for a closer look

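These members were among those with the smallest p-values of the interaction tests between lines (limma over all 27 libraries, adjusted over all genes tested), and each value is the log2 difference from WT in the first line minus that in the second. For 5-FU res against WT, HCT116 minus SW480 was 1.4995 for ATP5S, 1.20 for NDUFB4, -0.70 for UQCRC1 and -0.85 for NDUFB2. Their adjusted p-values ran from 1.4e-10 to 2.7e-08. For 5-FU res against WT, HCT116 minus DLD-1 was -1.49 for UQCRC1, -1.30 for NDUFA9, -0.84 for ATP5B, -1.07 for UQCRFS1 and -1.05 for SDHB. Their adjusted p-values ran from 3.1e-14 to 3.3e-11. For 5-FU res against WT, SW480 minus DLD-1 was -0.99 for ATP5B, -1.34 for SDHC, -1.98 for NDUFB4 and -0.76 for SDHD. Their adjusted p-values ran from 4.9e-14 to 1.3e-11. For OX res against WT, HCT116 minus SW480 was -1.07 for NDUFB10, -1.04 for UQCRB, -0.89 for COX5A, -0.82 for UQCRH and -0.49 for ATP5A1. Their adjusted p-values ran from 2.4e-09 to 9.8e-08. For OX res against WT, HCT116 minus DLD-1 was -1.54 for NDUFB10, -1.59 for ATP5J2, -0.97 for UQCRC1, -1.02 for SDHB and -0.91 for ATP5L. Their adjusted p-values ran from 3.4e-12 to 4.9e-11. For OX res against WT, SW480 minus DLD-1 was -0.89 for ATP5L, -1.22 for ATP5G1, -0.58 for SDHD, -0.98 for NDUFB2 and -1.08 for NDUFC2. Their adjusted p-values ran from 1.8e-10 to 2.2e-08. NDUFB4 and SDHC lay among genes of their region that were lower in SW480 5-FU res cells, with neighbour medians of -1.26 and -0.81, and the part of DNA copy number was not tested. In the contrasts with DLD-1, line and run of libraries cannot be told apart.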

How the results depend on the processing

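Against WT, the median of all members kept its sign under every setting tried in HCT116 and SW480, with values from -0.99 to -0.39 in HCT116 and from -0.64 to -0.19 in SW480. The settings that moved values most were quantile normalization and the removal of trends on transcript length, the last also together with GC content, a choice added after the data were seen. Values that moved by more than the spread between libraries, or counts by more than 1.5 times, follow, with complexes given by their number. Without centring, for HCT116 OX res 7 members were higher, and for SW480 5-FU res 41 members were lower and 18 higher, and for SW480 OX res 44 members were lower and 7 higher. Without centring, for DLD-1 OX res 19 members were lower and 12 higher, and for HCT116 OX res against 5-FU res 8 members were lower and 58 higher, and for DLD-1 OX res against 5-FU res 18 members were lower. Over all genes tested, more were called higher than lower without centring in each of these comparisons. With a pseudocount of 0.1, for HCT116 5-FU res the median was -0.67 (II), and for HCT116 OX res the medians were -0.99 (all), -0.85 (II) and -1.21 (III), and for SW480 5-FU res the medians were -0.94 (II) and -0.89 (V). With a pseudocount of 0.1, for SW480 OX res the medians were -0.69 (II) and -0.64 (V). Without the filter on low values, for HCT116 5-FU res the median was -0.67 (III), and for HCT116 OX res the median was -1.05 (III), and for DLD-1 5-FU res the median was 0.024 (III). Without the filter on low values, for DLD-1 OX res the median was -0.22 (IV). At a mean TPM of 5 or more, for HCT116 5-FU res the medians were -0.58 (II), -0.88 (III) and -0.94 (V), and for HCT116 OX res the medians were -0.69 (II) and -1.06 (III), and for SW480 5-FU res the median was -0.85 (II) and 0 members were higher. At a mean TPM of 5 or more, for SW480 OX res 0 members were higher, and for DLD-1 5-FU res the median was -0.0063 (I). By median-of-ratios scaling, for HCT116 5-FU res the median was -0.68 (II), and for HCT116 OX res the medians were -0.84 (II) and -1.21 (III), and for SW480 5-FU res the medians were -0.94 (II) and -0.90 (V). By median-of-ratios scaling, for SW480 OX res the medians were -0.69 (II) and -0.65 (V). By quantile normalization, for HCT116 5-FU res the medians were -0.39 (all), -0.42 (I), -0.35 (II), -0.51 (III), -0.26 (IV) and -0.50 (V), and for HCT116 OX res the medians were -0.39 (all), -0.35 (I), -0.37 (II), -0.58 (III), -0.19 (IV) and -0.47 (V) and 6 members were higher, and for SW480 5-FU res the medians were -0.26 (all), -0.27 (I), -0.54 (II), -0.15 (III), 0.030 (IV) and -0.44 (V) and 12 members were higher. By quantile normalization, for SW480 OX res the medians were -0.21 (all), -0.22 (I), -0.35 (II), -0.23 (III), -0.0087 (IV) and -0.23 (V) and 5 members were higher, and for DLD-1 5-FU res the medians were -0.072 (all), -0.067 (I), -0.041 (IV) and -0.10 (V), and for DLD-1 OX res the medians were -0.12 (all), -0.15 (III), -0.028 (IV) and -0.14 (V). With the length trend removed, for HCT116 5-FU res the medians were -0.51 (all), -0.55 (I), -0.38 (II), -0.53 (III), -0.43 (IV) and -0.63 (V) and 4 members were higher, and for HCT116 OX res the medians were -0.50 (all), -0.43 (I), -0.54 (II), -0.82 (III), -0.44 (IV) and -0.74 (V) and 4 members were higher, and for SW480 5-FU res the medians were -0.43 (all), -0.28 (I), -0.69 (II), -0.24 (III), -0.13 (IV) and -0.61 (V) and 5 members were higher. With the length trend removed, for SW480 OX res the medians were -0.23 (all), -0.24 (I), -0.42 (II), -0.19 (III), -0.017 (IV) and -0.27 (V) and 3 members were higher, and for DLD-1 5-FU res the median was 0.044 (IV), and for DLD-1 OX res the medians were -0.13 (II) and -0.11 (IV). With length and GC trends removed, for HCT116 5-FU res the medians were -0.49 (all), -0.44 (I), -0.35 (II), -0.55 (III), -0.37 (IV) and -0.68 (V) and 4 members were higher, and for HCT116 OX res the medians were -0.52 (all), -0.40 (I), -0.55 (II), -0.85 (III), -0.47 (IV) and -0.77 (V) and 5 members were higher, and for SW480 5-FU res the medians were -0.41 (all), -0.25 (I), -0.69 (II), -0.22 (III), -0.14 (IV) and -0.60 (V) and 4 members were higher. With length and GC trends removed, for SW480 OX res the medians were -0.19 (all), -0.19 (I), -0.42 (II), -0.20 (III), -0.078 (IV) and -0.30 (V) and 4 members were higher, and for DLD-1 5-FU res the median was 0.045 (IV) and 20 members were higher, and for DLD-1 OX res the medians were -0.13 (II) and -0.11 (IV) and 8 members were higher. Among all genes tested, 5565 of 14010 were higher with OX in HCT116 by quantile normalization. For SW480 it was 4768 with 5-FU and 4499 with OX, of 14039. Once length and GC trends were removed, 4829 and 5500 of 13562 genes were higher in HCT116, with 5-FU and then OX. In the same order it was 5004 and 4457 of 13598 in SW480 and 3515 and 3402 of 13047 in DLD-1. With only the groups compared in the fit, for DLD-1 5-FU res the median was -0.010 (I). With subunit genes only and NDUFA4 in complex IV, for HCT116 5-FU res 0 members were higher, and for HCT116 OX res 0 members were higher, and for SW480 5-FU res 0 members were higher. With subunit genes only and NDUFA4 in complex IV, for SW480 OX res 0 members were higher, and for DLD-1 5-FU res the median was -0.11 (V), and for DLD-1 OX res the median was -0.26 (V). The counts of 0 are limma calls, and at an unadjusted p under 0.05 0, 0, 0 and 0 subunit genes were higher in the 4 HCT116 and SW480 comparisons and 0 and 0 members at the TPM minimum of 5 in the 2 SW480 comparisons.

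With 1 library left out, for HCT116 5-FU res the median of all members ran from -0.87 (without HCT116 5-FU res library 2) to -0.80 (without HCT116 5-FU res library 1) and the median of complex V ran from -1.02 (without HCT116 5-FU res library 2) to -0.94 (without HCT116 WT library 2). For HCT116 OX res the median of all members ran from -0.92 (without HCT116 WT library 3) to -0.82 (without HCT116 OX res library 3) and the median of complex I ran from -0.78 (without HCT116 OX res library 2) to -0.68 (without HCT116 OX res library 3). For SW480 5-FU res the count higher ran from 1 (without SW480 WT library 1) to 2 (without SW480 WT library 2), the median of complex I ran from -0.60 (without SW480 WT library 1) to -0.42 (without SW480 WT library 2) and the median of complex III ran from -0.59 (without SW480 WT library 1) to -0.41 (without SW480 WT library 2). For SW480 5-FU res the median of complex IV ran from -0.54 (without SW480 WT library 1) to -0.36 (without SW480 WT library 2) and the median of complex V ran from -0.88 (without SW480 WT library 1) to -0.79 (without SW480 WT library 2). For SW480 OX res the median of complex I ran from -0.58 (without SW480 WT library 1) to -0.46 (without SW480 WT library 2), the median of complex II ran from -0.67 (without SW480 WT library 1) to -0.61 (without SW480 WT library 3) and the median of complex III ran from -0.56 (without SW480 WT library 1) to -0.44 (without SW480 WT library 2). For DLD-1 5-FU res the median of all members ran from -0.044 (without DLD-1 WT library 1) to 0.00080 (without DLD-1 5-FU res library 2), the median of complex I ran from -0.049 (without DLD-1 WT library 3) to -0.00050 (without DLD-1 5-FU res library 2) and the median of complex II ran from -0.046 (without DLD-1 WT library 2) to -0.0068 (without DLD-1 5-FU res library 1). For DLD-1 5-FU res the median of complex V ran from -0.086 (without DLD-1 5-FU res library 3) to -0.026 (without DLD-1 5-FU res library 2). For DLD-1 OX res the median of complex III ran from -0.30 (without DLD-1 OX res library 1) to -0.20 (without DLD-1 WT library 1). For SW480 OX res against 5-FU res the count lower ran from 11 (without SW480 OX res library 3) to 15 (without SW480 5-FU res library 2).

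Named genes that changed sign are given by setting. Without centring, differences were, for HCT116 OX res COX7A2L 0.033, NDUFA4 0.13 and NDUFS8 0.086, and for SW480 5-FU res ATP5G2 0.22, COX5B 0.37, COX6A1 0.17, COX7A2 0.085, NDUFA1 0.23, NDUFA2 0.39, NDUFA6 0.18 and UQCR11 0.28, and for SW480 OX res ATP5E 0.23, ATP5G2 0.12, COX5A 0.20, COX5B 0.070, COX6A1 0.029, COX7A2L 0.046 and SDHC 0.18. By quantile normalization, differences were, for HCT116 5-FU res COX5A 0.016 and UQCRC2 0.015, and for HCT116 OX res ATP5E 0.24, NDUFA4 0.025 and NDUFS8 0.14, and for SW480 5-FU res ATP5G2 0.31, COX5B 0.41, COX6A1 0.38, COX6B1 0.27, COX7A2 0.092, COX8A 0.0067, NDUFA1 0.28, NDUFA2 0.34 and NDUFA6 0.035. By quantile normalization, differences were, for SW480 OX res ATP5E 0.51, ATP5G2 0.15, COX5A 0.23, COX5B 0.082 and COX6A1 0.079. With the length trend removed, differences were, for HCT116 OX res NDUFS8 0.056, and for SW480 5-FU res ATP5G2 0.026, COX5B 0.23, COX6A1 0.053 and NDUFA2 0.26, and for SW480 OX res ATP5G2 0.075, COX5A 0.19, COX5B 0.055, COX6A1 0.020 and SDHC 0.17. With length and GC trends removed, differences were, for HCT116 OX res NDUFS8 0.14, and for SW480 5-FU res ATP5G2 0.0032, COX5B 0.24, COX6A1 0.055 and NDUFA2 0.27, and for SW480 OX res ATP5G2 0.17, COX5A 0.18, COX5B 0.080, COX6A1 0.063 and SDHC 0.14. Of the other values of named genes, 57 lost and 23 gained significance in the same direction, and 3376 kept their call. The replicate numbers were not shown to pair libraries, since the correlation of deviations between libraries with the same number ran from -0.20 to 0.22. With the number as a block, 74, 75, 70, 75, 23 and 42 members were lower in HCT116, SW480 and DLD-1, with 5-FU and then OX for each, and no other call changed by over 1.5 times. No source used here gives the reads behind a library, and what depth limits could not be stated. Each cause of a move was not tested.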
